A study of Mus musculus with 8 samples.

Results

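The genes described here move GLUT4, the insulin-responsive glucose transporter encoded by Slc2a4, to the surface of muscle fibres. The set was drawn up as 9 genes: Stxbp4, Slc2a4, Stx4a, Vamp2, Tbc1d1, Tbc1d4, Rab10, Sort1 and Lnpep. A gene was taken from the deposited table where a transcript cluster (a row of the table, which summarises the probes of 1 transcribed region) carried its symbol and no other. By this rule 6 of the 9 genes had a row, among 14860 genes with such a row in all, and they accounted for 7 of 16755 rows because Stxbp4 had 2. Tbc1d4, Sort1 and Lnpep were not analysed here. Stxbp4 was chosen by its measured fasted minus fed difference in these same arrays, where it was low in fasted muscle, so that difference is described below without a test. The other genes were chosen for their roles, with earlier results of these data known. The rule would have kept the highest-mean row of a gene, but each gene other than Stxbp4 had a single row.

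RNA came from the tibialis anterior, which lifts the foot and is made up mostly of fast fibres, of male mice aged 8 weeks. Fasted mice went without food for 24 h, and fed mice ate ad libitum; the labels used here name no strain, allele or other agent. Each exon array held pooled RNA of 3 mice, and the experiment was run 4 times with 1 fasted and 1 fed pool each time, which gave 4 fasted and 4 fed arrays. A pool shows no spread between its mice, so errors here are those between pools and experiments. Levels are log2 expression values, on which a difference of 1 is a doubling, and differences are fasted minus fed within experiments.

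In muscle, GLUT4 is held in intracellular vesicles and reaches the surface membrane when insulin or contraction releases them. Kinases downstream of either signal act on the Rab GTPase-activating proteins TBC1D1 and TBC1D4, which otherwise keep Rab GTPases such as RAB10 in their inactive form. Vesicles then fuse through the vesicle SNARE VAMP2 and the surface SNARE syntaxin 4, the product of Stx4a. Stxbp4 encodes a syntaxin 4 binding protein, also called Synip, which in cultured mouse adipocytes occupies syntaxin 4 and leaves it after insulin.

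The arrays were alike in their distributions, with medians between 5.76 and 5.91 and correlations between arrays across rows, which are not independent replicates, of 0.957 to 0.980. The labelled tissue fitted its markers: 7 of 10 listed skeletal muscle markers had a row, with mean levels from 10.80 (Ckm) to 12.39 (Tnnt3), and 0 of the 7 passed the test. Their summed linear level was 22500 to 27600 in fasted and 23800 to 29000 in fed arrays. Adipocytes also use GLUT4. Of the 7 listed adipocyte markers 6 had a row and 0 passed, with a summed linear level of 500 to 574 in fasted and 454 to 579 in fed arrays; their mean levels ran from 4.44 (Lep) to 7.67 (Fabp4).

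Of the 6 genes, Stxbp4 was the one whose fasted and fed arrays did not overlap, and it was lower in the fasted pool of every experiment in both of its rows. In the row of higher mean (transcript cluster 6790737) the level was 5.42, 5.77, 5.51 and 5.25 in the fasted pools of experiments 1 to 4, against 6.91, 6.26, 7.15 and 6.95 in the fed pools. The highest fasted pool, that of experiment 2, thus lay below the lowest fed pool, which came from the same experiment. The means were 5.49 ± 0.22 in fasted and 6.82 ± 0.39 in fed muscle (SD, n = 4 each), a difference of -1.33 ± 0.20 (SE). On the linear scale 39.8% of the fed level was found in fasted muscle, which is 2.51-fold lower. Experiment 2 stood apart, with a difference of -0.49, while experiments 1, 3 and 4 gave -1.49, -1.64 and -1.70. Without experiment 2 the difference was -1.61. In whole muscle RNA, fewer cells that express Stxbp4 and less Stxbp4 RNA per cell cannot be told apart.

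The other row of Stxbp4 (cluster 6790734) gave 4.57, 4.89, 4.86 and 4.94 in the fasted pools and 5.54, 5.62, 5.92 and 5.75 in the fed pools. Again no fasted pool reached the lowest fed one. The means were 4.81 ± 0.17 in fasted and 5.71 ± 0.16 in fed muscle (SD, n = 4 each), and the difference was -0.89 ± 0.11 (SE), with 53.8% of the fed level found in fasted muscle. Experiments 1 to 4 gave -0.98, -0.73, -1.06 and -0.81, a narrower spread (SD 0.15) than in the row of higher mean (SD 0.57). RMA compresses differences at low signal, and part of the Stxbp4 values lay below 5.76, the lowest array median: all fasted pools and the fed pools of experiments 1, 2 and 4 in cluster 6790734, and the fasted pools of experiments 1, 3 and 4 in cluster 6790737. The folds of both rows carry this limit. Among all 16755 differences the 2 rows ranked 9 and 25 from the lowest. Groups did not overlap, with every fasted array the lower, in 3.22% of all rows; since Stxbp4 was chosen for this contrast, nothing is read from that.

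The fasted minus fed difference of cluster 6790737 minus that of cluster 6790734 was -0.52, 0.25, -0.58 and -0.89 in experiments 1 to 4, with a mean of -0.43 ± 0.48 (SD, n = 4). It was thus the further below 0 in all but experiment 2. These values come from the contrast by which Stxbp4 was chosen and are given without a test. Which exons of Stxbp4 each row covers is not given in the sources used here.

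**Figure D1:**
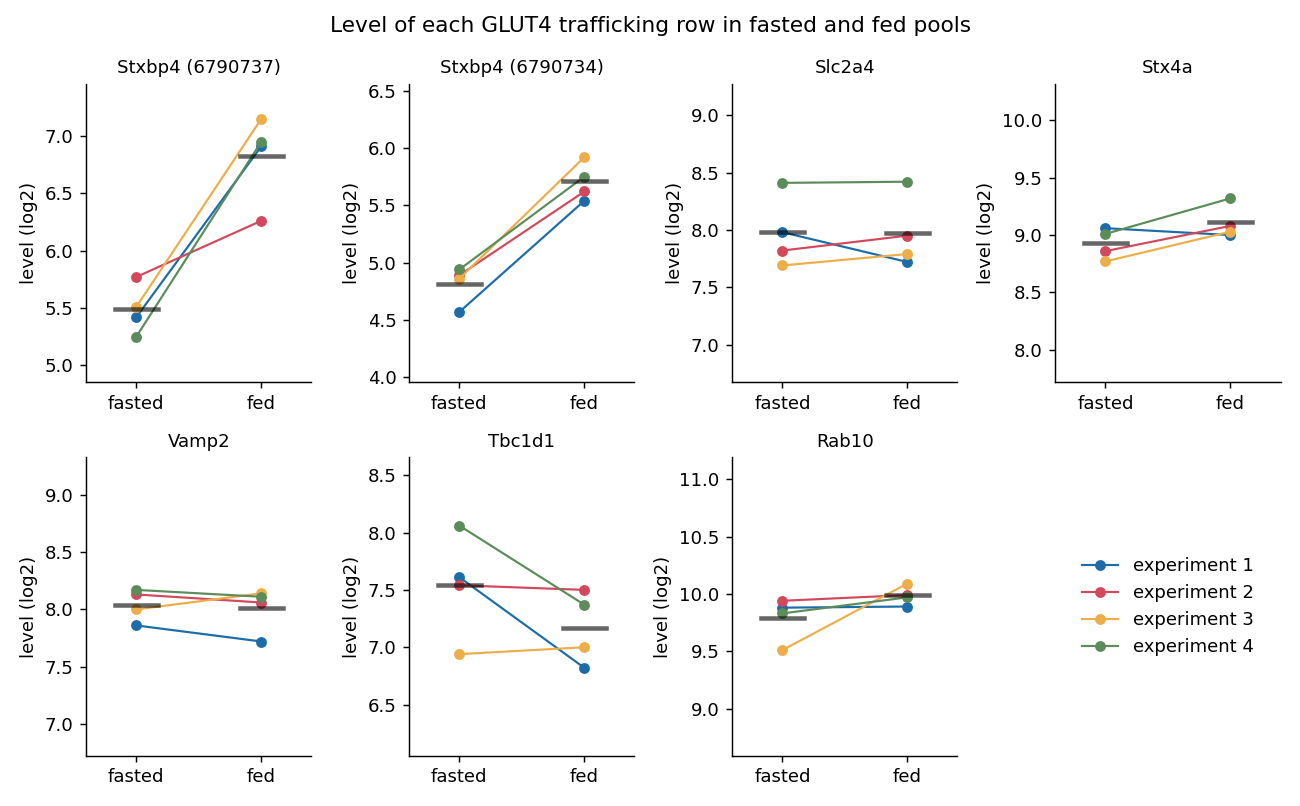
Log2 level of each row in fasted (left) and fed (right) pools, with a line joining the pools of 1 experiment and a black bar at the mean of the 4 pools. Each vertical axis spans the same number of log2 units. The lines of both Stxbp4 rows run in the same direction in all 4 experiments without overlap of the groups. Stxbp4 was chosen by this contrast, so nothing is read from its separation. The groups of the other genes overlap, and Rab10 was also lower in the fasted pool in all 4 experiments.

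The start of Stxbp4 is shown because the gene lies head to head with Cox11, whose product helps to assemble cytochrome c oxidase, and the values of both are given below. In RefSeq on GRCm38.p6 the first transcribed bases of the 2 genes are 76 bases apart on opposite strands. The 300 bases from 250 before to 50 after the start of Stxbp4, on the minus strand at chr11:90638059-90638358, share 175 bases with the same window of Cox11. Stxbp4 transcription starts at base 251 of the sequence printed here, and that of Cox11 at base 175 on the other strand. Capitals mark TCTCGCGAGA, the widest palindrome around a CGCG in the window, known as the CGCG element and as a binding sequence of the protein BANP.
Stxbp4: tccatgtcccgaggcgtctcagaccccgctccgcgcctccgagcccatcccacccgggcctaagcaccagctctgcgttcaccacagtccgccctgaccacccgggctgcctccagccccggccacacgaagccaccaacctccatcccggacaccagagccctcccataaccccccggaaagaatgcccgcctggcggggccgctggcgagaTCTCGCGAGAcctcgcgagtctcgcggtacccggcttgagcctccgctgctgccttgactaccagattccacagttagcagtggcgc

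The window was 68.3% G and C, against a median of 52.7% over 32851 promoter windows of the same length, and held 27 CG dinucleotides. The marked element, looked for after the sequence had been seen, was found in 0.466% of all windows on either strand. It was taken from this window and is longer than the other sequences searched, so nothing is read from its low share. A GC box (GGGCGG, either strand) was in the Stxbp4 window and in 35.7% of all windows. No match was found in it to the E-box CACGTG (7.15% of all windows) or to the forkhead sequence GTAAACA (3.65%), each searched on both strands. These are matches of letters in 1 window and say nothing about binding in these muscles.

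The 2 nearest genes with a row on each side of Stxbp4 on chromosome 11 were read next; position, not value, chose them. Cox11 was at 6.92, 7.12, 6.69 and 6.94 in fasted pools and 7.11, 7.37, 7.41 and 7.54 in fed pools. It was lower in the fasted pool in 4 of 4 experiments, although the fasted pool of experiment 2 lay just above the fed pool of experiment 1. The difference was -0.44 ± 0.13 (SE; limma adjusted p = 0.222) and did not pass. Hlf, which lies on the other side of Stxbp4 and encodes a transcription factor of the circadian output, was at 6.66, 6.24, 6.57 and 6.48 in fasted pools and 6.81, 6.91, 7.50 and 6.96 in fed pools. Its fasted pools all lay below its fed pools, as in 3.22% of all rows, and its difference of -0.56 ± 0.14 did not pass either (adjusted p = 0.171). Tom1l1, beyond Cox11, was lower in the fasted pool in 4 of 4 experiments at -0.24 ± 0.11 (adjusted p = 0.503). Mmd, beyond Hlf, differed in sign between experiments, at 0.03 ± 0.16 (adjusted p = 0.986). The fasted pool was the lower one in 4 of 4 experiments in 10.1% of all rows, a share that includes Hlf, Cox11 and Tom1l1.

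**Figure D2:**
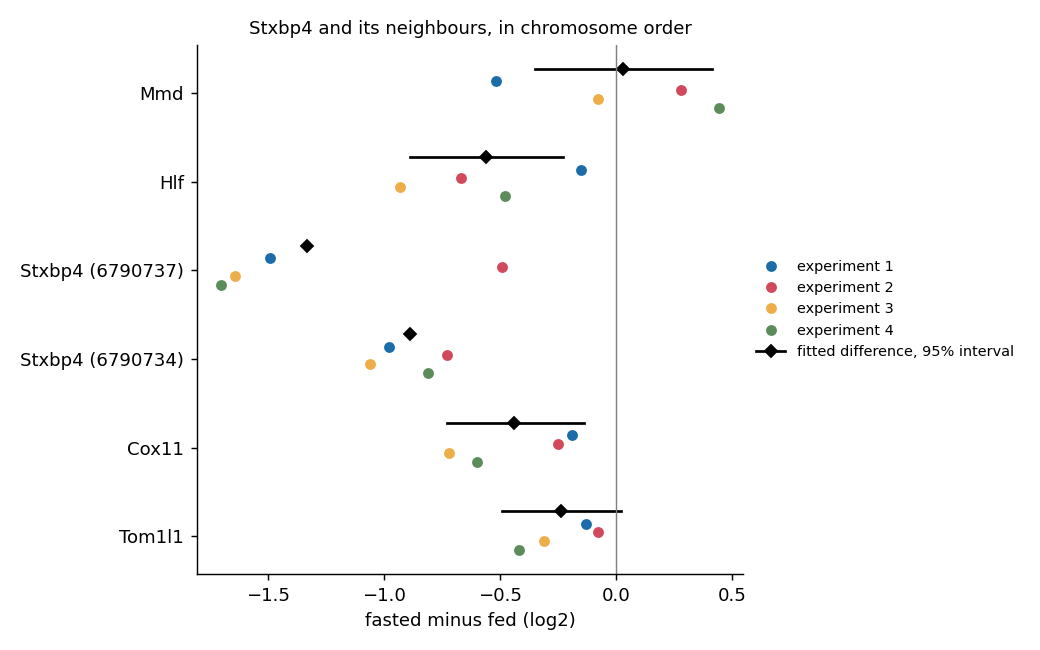
Fasted minus fed difference (log2) of Stxbp4 and the 2 nearest genes with a row on each side, in chromosome order from top to bottom, with the 2 Stxbp4 rows ordered by level. Coloured points are the 4 experiments, black diamonds the fitted differences, and lines their 95% intervals, which are not drawn for Stxbp4. Hlf, Cox11 and Tom1l1 lie below 0 in all 4 experiments, nearer to 0 than most points of Stxbp4.

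The transporter gene itself had nearly equal means in both groups. Slc2a4 (cluster 6789367) was at 7.98, 7.82, 7.69 and 8.41 in the fasted pools of experiments 1 to 4, against 7.72, 7.95, 7.79 and 8.42 in the fed pools. Both pools of experiment 4 were high and the groups overlapped throughout. The means were 7.98 ± 0.32 in fasted and 7.97 ± 0.32 in fed muscle (SD, n = 4 each), and the difference was 0.00 ± 0.11 (SE; limma adjusted p = 0.997). Its 95% interval, -0.26 to 0.27, leaves room for a change of that size in either direction.

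The SNARE genes of the fusion step lay close to their fed levels. Stx4a, which encodes the surface SNARE that Synip binds, was at 9.06, 8.86, 8.77 and 9.01 in fasted pools and 9.00, 9.08, 9.03 and 9.32 in fed pools. It was lower in the fasted pool in 3 of 4 experiments, with overlapping groups, and the difference of -0.18 ± 0.11 did not pass (95% interval -0.44 to 0.07; adjusted p = 0.649). Vamp2, the vesicle SNARE, was at 7.86, 8.13, 8.00 and 8.17 in fasted pools and 7.72, 8.06, 8.14 and 8.11 in fed pools. Its groups overlapped and the difference was 0.03 ± 0.10 (95% interval -0.21 to 0.28; adjusted p = 0.973).

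The Rab step gave wider spreads. Tbc1d1, the Rab GTPase-activating protein that AMP-activated kinase phosphorylates in muscle, was at 7.61, 7.54, 6.94 and 8.06 in fasted pools and 6.82, 7.50, 7.00 and 7.37 in fed pools. The fasted pool was clearly the higher in experiments 1 and 4, by 0.79 and 0.69, and close to the fed pool in experiments 2 and 3, at 0.04 and -0.07. The fitted difference of 0.36 ± 0.17 did not pass (95% interval -0.02 to 0.75; adjusted p = 0.498). Rab10, whose GTPase moves GLUT4 vesicles in adipocytes, was at 9.88, 9.94, 9.51 and 9.83 in fasted pools and 9.89, 9.99, 10.09 and 9.97 in fed pools. It was lower in the fasted pool in 4 of 4 experiments, as in 10.1% of all rows, mostly through the fasted pool of experiment 3. The difference of -0.20 ± 0.13 did not pass (95% interval -0.49 to 0.10, adjusted p = 0.682).

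In all, 0 of the 5 genes other than Stxbp4 passed limma's test at an adjusted p of 0.05, and 0 of them had an unadjusted p under 0.05. Among all rows, 0.818% passed, and 10.9% had an unadjusted p under 0.05, so 0 of 5 is near the background. Of the 5, 3 had a fitted difference above 0 and 2 below, with a median of 0.00 against -0.02 over all rows. The groups overlapped in all 5; among all rows, 3.22% had every fasted array below every fed one and 3.55% every fasted array above, so this too is near the background. The 95% intervals of the 5 genes reached no lower than -0.49 (Rab10) and no higher than 0.75 (Tbc1d1).

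**Figure D3:**
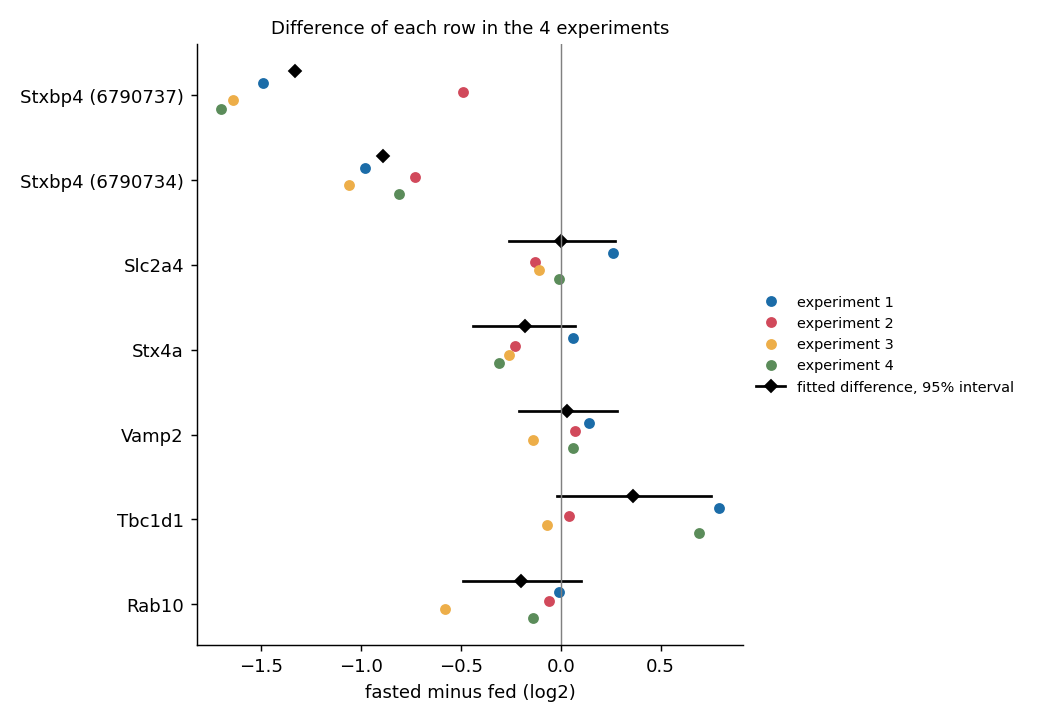
Fasted minus fed difference (log2) of each row in the 4 experiments (coloured points), with the fitted difference (black diamond) and, except for Stxbp4, its 95% interval (black line). The intervals of Slc2a4, Stx4a, Vamp2, Tbc1d1 and Rab10 hold 0, and the points of the Stxbp4 rows lie between -1.70 and -0.49.

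The wider machinery of GLUT4 transport was read through 9 gene lists, written with earlier results of these data known. They named 116 different symbols, of which 92 had a row, and 1 of the 92 passed, a rise, against 0.818% of all rows in either direction and 0.531% higher in fasted muscle. Values were above 0 for 32 genes and below 0 for 60, with a median of -0.06 beside -0.02 over all rows. Of all 16755 rows 9107 were below 0, so the counts below 0 given for single lists are read beside a majority below 0 in the whole table. An unadjusted p under 0.05 was found for 10 of the 92 genes, against 10.9% of all rows. Of the list genes named below, Doc2b, Rab8a, Tnks, Aspscr1, Sec16a, Slc2a1 and Klf15 had all fasted arrays above all fed ones. Exoc1, Mef2c, Ppargc1a, Stx7 and Stx12 had them all below. Over all rows the shares were 3.55% and 3.22%. Genes were named for a low adjusted p, which favours such separation, so nothing is read from it.

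The gene that passed was Tnks, in the list of sorting and retention. It encodes tankyrase, a poly-ADP-ribose polymerase that binds IRAP, the cargo aminopeptidase of GLUT4 vesicles encoded by Lnpep. Tnks was at 7.89, 7.71, 7.65 and 7.37 in fasted pools and 7.06, 6.77, 7.24 and 6.71 in fed pools, and every fasted pool lay above every fed one, as in 3.55% of all rows. The means were 7.66 ± 0.21 in fasted and 6.94 ± 0.25 in fed muscle (SD, n = 4 each), and it rose 1.64-fold (log2 0.71 ± 0.12 SE, limma adjusted p = 0.049). The call rests on a narrow margin: it ended without experiment 1, 2 or 4 (adjusted p = 0.183, 0.246 and 0.180) and with median centring of the arrays (0.101), with differences from 0.64 to 0.73 in these settings. The other 14 of 15 genes of the list did not pass, and the list median was 0.01. Among them were Aspscr1, which encodes the tether TUG that retains GLUT4 vesicles (0.26 ± 0.11, adjusted p = 0.471), and Sec16a, whose product works with RAB10 in adipocytes (0.23 ± 0.10, adjusted p = 0.475).

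Further SNAREs and their partners held no gene past the test. In the vesicle fusion list 13 of 15 genes had a row, with 3 values above 0 and 10 below, a range of -0.24 to 0.21 and a median of -0.11. The smallest adjusted p was that of Doc2b, a calcium sensor of exocytosis, at 0.21 ± 0.11 (adjusted p = 0.579). Napa, which helps to take SNARE complexes apart, was at 0.18 ± 0.10 (0.635), and the vesicle SNARE gene Vamp3 at -0.20 ± 0.12 (0.636). Of 11 syntaxin genes with a row, some of them also in the fusion list, 9 were below 0, led by the endosomal syntaxin genes Stx7 at -0.29 ± 0.10 (adjusted p = 0.322) and Stx12 at -0.20 ± 0.10 (0.551), and by Stx2 at -0.19 ± 0.12 (0.687). The relatives of Stxbp4 by name were near 0: Stxbp2 at -0.12 ± 0.10, Stxbp6 at 0.10 ± 0.11 and Stxbp5l at 0.04 ± 0.12, with adjusted p of 0.783, 0.865 and 0.965. These share the naming, not the sequence family, of Synip.

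Small GTPases and the exocyst, the complex that holds vesicles at the surface, held no gene past the test either. Of 13 small GTPase and regulator genes with a row, 5 were above 0 and 8 below (median -0.05). Rab8a, a target of TBC1D4 in rat muscle cells, was at 0.29 ± 0.11 (adjusted p = 0.359). Its fasted pools all lay above its fed pools, as in 3.55% of all rows. Rhoq was at -0.25 ± 0.12 (0.518) and Rala, which engages the exocyst, at -0.32 ± 0.16 (0.547). Of 13 exocyst and motor genes, 11 were below 0 (median -0.10, range -0.51 to 0.36). The exocyst genes Exoc7 and Exoc1 were both at -0.26, with adjusted p of 0.385 and 0.474, and the vesicle motor gene Myo5a was at 0.36 ± 0.11 (0.262). For Exoc1 all fasted pools lay below all fed ones, as in 3.22% of all rows.

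Signals and transcription upstream of GLUT4 gave the next smallest adjusted p. In the list of regulators of Slc2a4 transcription 0 of 11 genes passed, with a median of -0.16, while 4 had an unadjusted p under 0.05, against 10.9% of all rows. Klf15, a transcription factor that raises Slc2a4 in muscle, was at 7.02, 6.79, 6.40 and 6.69 in fasted pools and 6.19, 5.85, 5.83 and 6.39 in fed pools (0.66 ± 0.13, adjusted p = 0.0844). All its fasted pools were above all its fed ones, as in 3.55% of all rows. Klf15 passed when the dimmest rows were left out (0.0367) and with a trended robust prior (0.0352). It did not pass in the other alternative settings, with adjusted p from 0.0733 (random experiment block) to 0.324 (without experiment 2). Mef2c, of the MEF2 family that binds the Slc2a4 promoter, was at 10.07, 10.04, 9.72 and 10.32 in fasted pools and 10.46, 10.54, 10.73 and 10.80 in fed pools (-0.59 ± 0.13, adjusted p = 0.115). The coactivator gene Ppargc1a was at -0.39 ± 0.13 (0.292). For both Mef2c and Ppargc1a all fasted pools were below all fed ones, as in 3.22% of all rows. These values lay on both sides of 0 beside a Slc2a4 difference of 0.00.

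Among 5 upstream kinase genes with a row, Pdpk1, which encodes the kinase that activates AKT, was at 0.38 ± 0.13 (adjusted p = 0.313), the AMP-activated kinase gene Prkaa2 at -0.11 ± 0.11 (0.860) and the atypical protein kinase C gene Prkci at 0.06 ± 0.10 (0.950). Of 10 other hexose transporter and hexokinase genes, 4 were above 0 and 6 below (range -0.23 to 0.17). They included the fructose transporter gene Slc2a5 at -0.23 ± 0.11 (0.507), the basal glucose transporter gene Slc2a1 at 0.17 ± 0.10 (0.644) and the muscle hexokinase gene Hk2 at -0.21 ± 0.13 (0.649).

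**Figure D4:**
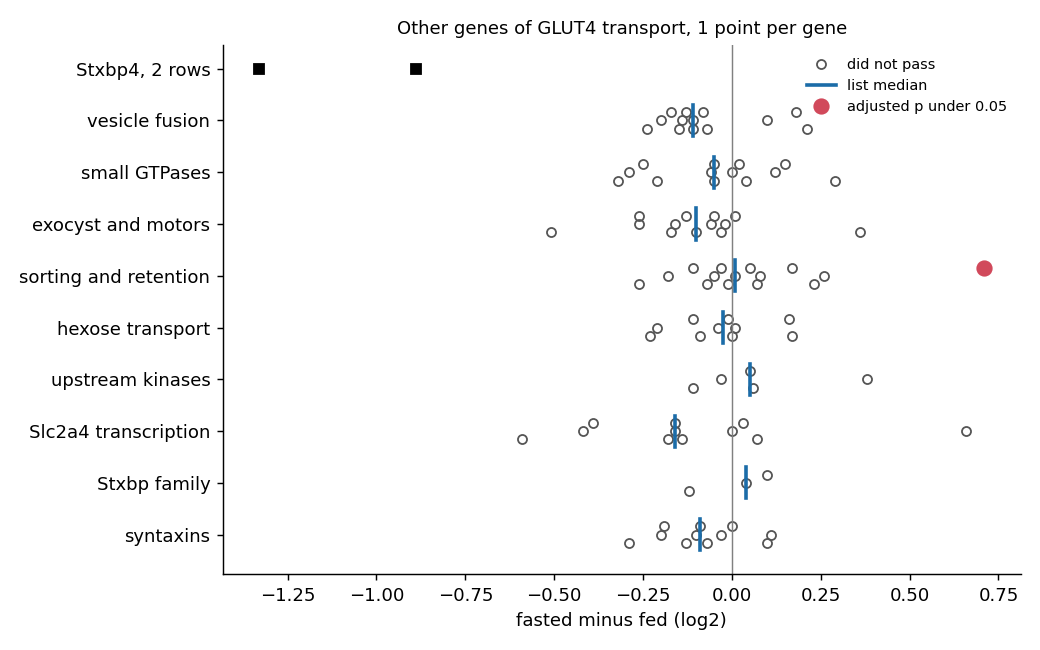
Fasted minus fed difference (log2) of every gene with a row in the 9 lists, 1 point per gene, with the list median as a blue bar and the 2 Stxbp4 rows as squares in the top line. The filled point is Tnks at 0.71, and the lowest gene of any list, at -0.59, is Mef2c.

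Rows with a profile like that of Stxbp4 or Slc2a4 were ranked by Pearson's r over the 8 arrays, as a description. The 5 rows with 1 symbol most like Stxbp4 (cluster 6790737) were those of Rrbp1 (r = 0.977), Pelp1 (0.965), Trim35 (0.961), Vrk2 (0.961) and Cish (0.952). All 5 had non-overlapping groups with fasted below fed, which a high r with such a profile largely fixes, and their differences were smaller, from -0.52 for Trim35 to -0.13 for Pelp1. The other Stxbp4 row ranked 19 among all rows, with r = 0.925. Each of the 5 also had its smallest difference in experiment 2, as Stxbp4 did, which the choice by r largely fixes too. For Cish, a feedback inhibitor of cytokine and growth hormone signalling, that difference was -0.12, beside -0.74, -0.73 and -0.46 in experiments 1, 3 and 4.

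The 5 rows most like Slc2a4 were those of Dync1li2 (r = 0.990), a light intermediate chain of dynein, Smtnl1 (0.985), Pcbp1 (0.976), Ndufv1 (0.971), a subunit of respiratory complex I, and Tcaim (0.971). Like Slc2a4, each had both its highest fasted and its highest fed value in experiment 4, which the choice by r largely fixes, and none differed between fasted and fed pools by more than 0.11. For Smtnl1 the 2 pools of experiment 4 were at 8.17 in fasted and 8.14 in fed muscle, against 7.29 to 7.56 in the other fasted and 7.13 to 7.49 in the other fed pools.

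**Figure D5:**
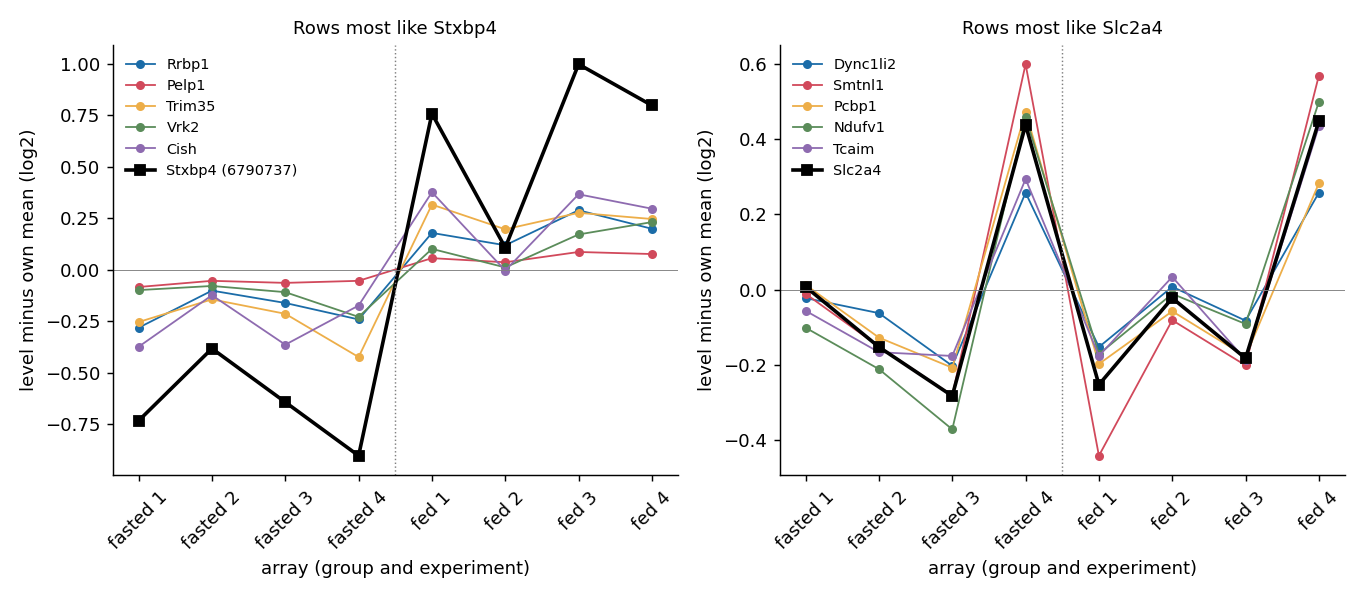
Level of each row minus its own mean over the 8 arrays (log2), for Stxbp4 and the 5 rows most like it (left) and for Slc2a4 and the 5 rows most like it (right). The Stxbp4 group steps up between fasted and fed arrays, and the Slc2a4 group peaks in both arrays of experiment 4.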

How the data were processed

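RNA of the tibialis anterior was amplified to cDNA by SPIA chemistry and labelled with biotin, per the labels' protocols. The authors deposited 1 log value per transcript cluster made with RMA (background correction, normalization between arrays and summary of probes); the submitters' processing notes name RMA but no version or probe class. The deposited values ran from 1.08 to 13.3, so they were read as log2. The notes name the build hg18 without a role. The table held 16755 rows with 0 missing values and 0 unused columns. Rows were named through the array platform's annotation, whose symbols can be old: 14996 rows had 1 symbol, 1019 several and 740 none. Detection calls were not used here, so a low level may be background, and the number of arrays limits the precision (median SE 0.12).

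The limma package 3.58.1 (R 4.3.3; lmFit, then eBayes without trend) fitted differences on all 16755 rows with experiment as a block, which the series description supports by pairing a fasted with a fed pool in each experiment. Deviations of paired arrays correlated at -0.176, 0.055, -0.144 and 0.435 in experiments 1 to 4. P-values were adjusted by Benjamini-Hochberg over all rows, with a threshold of 0.05, and rest on 3 residual and 4.84 prior degrees of freedom. The fit was tested on simulated arrays. A sign-flip test planned between the Stxbp4 rows cannot pass 0.05 with 4 experiments and is not reported. Members, lists and tests were chosen with earlier results of these data known. Named genes were all members, the 3 genes per list of lowest adjusted p and any past the threshold, the 2 nearest genes with a row on each side of Stxbp4, and the 5 rows most like Stxbp4 and Slc2a4. A gene with several rows was represented by that of highest mean. Other marker lists had 0 rows past the threshold: slow fibres (0 of 3), endothelium (0 of 5), macrophages (0 of 5), Schwann cells (0 of 3), erythroid cells (0 of 1) and fibroblasts (0 of 4). The summed linear level of the slow fibre markers varied widely within each group, from 537 to 1710 in fasted and from 531 to 1810 in fed arrays. Promoter sequence is from RefSeq on GRCm38.p6, where 6 of the 9 genes had a window.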

Additional observations from a re-analysis of the deposited data

Results flagged for a closer look

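Of 76 groups of 4 arrays checked, 4 held an array whose gap to the next took a share of the group's range above Dixon's 95% critical value; chance gives this in about 1 in 20 groups. None was a row of a gene of the transport set itself. Vamp3 was at 8.00 in the fasted pool of experiment 2, against 7.71 in the next. Exoc7 was at 6.83 in the fasted pool of experiment 4, against 6.56 in the next. Rab8a was at 6.69 in the fed pool of experiment 4, against 6.43 in the next, and Prkci at 5.85 in the fed pool of experiment 4, against 5.61.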

How the results depend on the processing

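Alternatives were the fit without the replicate block, a random experiment block, dropping each experiment in turn, quantile normalization, median centring, leaving out the 25% of rows with the lowest mean, and a trended robust prior. In each of these 10 settings 0 of the 5 genes other than Stxbp4 passed, with adjusted p down to 0.252 (Tbc1d1). Slc2a4 ranged from -0.08 to 0.05, its sign thus being unsettled, Vamp2 from 0.00 to 0.09, Tbc1d1 from 0.22 to 0.51, Rab10 from -0.26 to -0.07 and Stx4a from -0.26 to -0.14. Stxbp4 stayed at -1.61 to -1.21 in cluster 6790737 and at -0.95 to -0.84 in cluster 6790734. The count of pathway list genes past the threshold was 1 without the replicate block, which is the count with it, 0 to 1 when an experiment was left out, 0 after median centring, and 2 without the dimmest rows or with a trended prior; the cause was not tested. Without the block no call changed among the genes of the set other than Stxbp4, the named list genes and the neighbours of Stxbp4. Over all rows 137 passed, 185 without the block, of which 117 were among the 137, 229 with a random block, 45 after median centring, 240 without the dimmest rows, 216 with a trended prior and 16 to 94 without an experiment, where fewer arrays remain. No setting moved the median difference of all rows beyond -0.05 to 0.02. No alternative row could be tried, as each gene other than Stxbp4 had 1.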
